A study of Mus musculus with 16 samples.

Results

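E2f2 and E2f4, which encode 2 members of the E2F family of transcription factors, were followed through the expression tables and peak lists of a series on the erythroid factor KLF1 and its Nan mutant in mouse. The genes were taken by name, with every row of theirs in the 2 expression tables and every peak that gives either as its nearest gene in the 2 peak lists. They are 2 of 2247 genes with a row in either expression table. E2f2 has a row in the 4sU table (1556 genes) and in the liver table (793 genes), and E2f4 in the liver table alone. The new RNA of E2f4 is therefore not analysed here.

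The series holds 16 samples. Newly made RNA, tagged with 500 uM 4-thiouridine (4sU) for 1 h and then sequenced, came from K1-NanER cells (2 libraries, clones B and X), K1-ER cells (2 libraries, clones A and C) and parental K1 cells (2 libraries). All are KLF1 null erythroblasts. K1-NanER carries a fusion of Nan-KLF1 with the oestrogen receptor (Nan-KLF1-ER), K1-ER the same fusion of normal KLF1 (KLF1-ER), and K1 no transgene, and the labels give 200 nM 4-hydroxytamoxifen, which activates such fusions, for all 3 lines, although the 4sU table's own heading for K1 does not name it. Binding was measured by chromatin immunoprecipitation (ChIP) with a KLF1 antibody after 3 h of tamoxifen, in 1 ChIP and 1 input library of K1-NanER and the same of K1-ER, with 3 replicates pooled in each library. Globin-depleted polyadenylated RNA was sequenced from whole fetal livers of 3 Nan/+ embryos, which carry a Nan and a normal Klf1 allele, and of 3 wild-type embryos (+/+), all at embryonic day 14.5. Levels are in FPKM, a fragment count scaled by the authors to gene length and sequencing depth. The tables hold 1 value per group, so the spread between replicates and the depth are unknown. A gene was called where the q value of the authors' own comparison was at most 0.05.

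E2F proteins bind DNA as pairs with a DP protein and set the timing of genes for DNA replication and cell division. E2F2 belongs to the activating E2Fs, which the retinoblastoma protein holds in check until cyclin-dependent kinases release them at the start of S phase. E2F4 acts mainly as a repressor together with the pocket proteins p107 and p130, and mice without it have fetal anaemia. Red cell precursors divide rapidly and then leave the cell cycle while they mature, and E2f2 is a known KLF1 target in these cells. KLF1 reads CACCC-type elements with its zinc fingers, and the Nan mutation lies in the second finger.

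The sequences at which the factors were found on E2f2 are the central motifs that the authors' lists give for its peaks. They are shown because the fourth base of this element, in capitals below, differs in frequency between the lists. Distances are from the start of the E2f2 locus on build mm9 (chromosome 4, 135728309 to 135751971), whose low end is taken as the start because RefSeq has the gene on the plus strand.
Nan-KLF1 peak at 5.695 kb: ccaCaccc
KLF1 peak at 2.566 kb: ccaAgccc
KLF1 peak at 5.721 kb: cccCaccc
KLF1 peak at 9.073 kb: cccCgccc
Of the peaks with a central motif, the fourth base was C in 50.3% of the Nan-KLF1 list and in 80.2% of the KLF1 list, and A in 24.4% of the Nan-KLF1 list and in 10.4% of the KLF1 list.

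The promoter at the first start of E2f2 is shown because no peak of either factor was listed there. The nearest summit lay 2566 bases after the locus start, and the introns held 1 Nan-KLF1 and 3 KLF1 peaks. The promoter is the run of 250 bases before the gene's first annotated start in RefSeq (build GRCm38.p6, chr4:136172024-136172273, plus strand). The E2f2 locus of the tables is 121 bases shorter than that of RefSeq, so this start need not be the locus start from which peak distances were measured. Capitals mark the letters CACCC, searched on both strands (GGGTG is their reverse complement).
E2f2 promoter: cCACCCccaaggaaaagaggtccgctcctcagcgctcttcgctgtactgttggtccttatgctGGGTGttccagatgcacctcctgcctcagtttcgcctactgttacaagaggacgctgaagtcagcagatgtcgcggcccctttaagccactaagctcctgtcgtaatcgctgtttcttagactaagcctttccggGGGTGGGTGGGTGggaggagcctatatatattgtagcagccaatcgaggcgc
CACCC occurred 5 times in the window of 250 bases before and 50 bases after the start. Of these, 3 are overlapping copies on the minus strand whose first printed letters are at bases -52, -48 and -44 from the start. This element is common: 57.5% of 32851 RefSeq promoter windows of the same length hold it. The looser core CNCNCCC, which overlaps CACCC, occurred 5 times, and 67.9% of windows hold it. None of the 4 central motifs of the E2f2 peaks occurred in this window, searched on both strands. The E2F element TTTCCCG (in 3.39% of windows) and the GATA element GATAAG (in 7.44%) did not occur either.

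The E2F element TTTGGCG, which 1.56% of windows hold, occurred 2 times just after the E2f2 start, at bases 25 and 40. The stretch with both copies, in capitals, lies at chr4:136172298-136172319 on the plus strand of GRCm38.p6.
E2F elements of E2f2: TTTGGCGgcatatagTTTGGCG
A match is a match of letters only. RefSeq gives E2f2 a further start 8508 bases downstream, whose window held CACCC 3 times and 1 match to CCCCGCCC (17.6% of windows hold it). The KLF1 peak with its summit 9.073 kb from the mm9 locus start lies close to this further start. Builds and starting points differ, so the exact distance between them was not measured. E2f4 had no sequence in the table used.

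New RNA of E2f2 was highest in K1-ER and lowest in K1-NanER. The authors' deposited table puts its K1-NanER level at 26.0 FPKM, its K1-ER level at 151 FPKM and its K1 level at 43.4 FPKM. Relative to K1, E2f2 rose 3.47-fold in K1-ER (log2 fold change 1.79, q = 0.00213 in the authors' deposited table). Its K1-NanER level was 1.67-fold under that of K1, with a log2 value of -0.74, and missed the threshold of the authors' test (p = 0.0212, q = 0.173 in the authors' deposited table). The normal factor and the mutant thus lay on opposite sides of the parental cells, of which the higher side passed the test. E2f2 is 1 of the 589 genes that rose in K1-ER, 37.9% of the 4sU table, and its rise ranked 318th among them, near their median log2 fold change of 1.89.

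**Figure D1:**
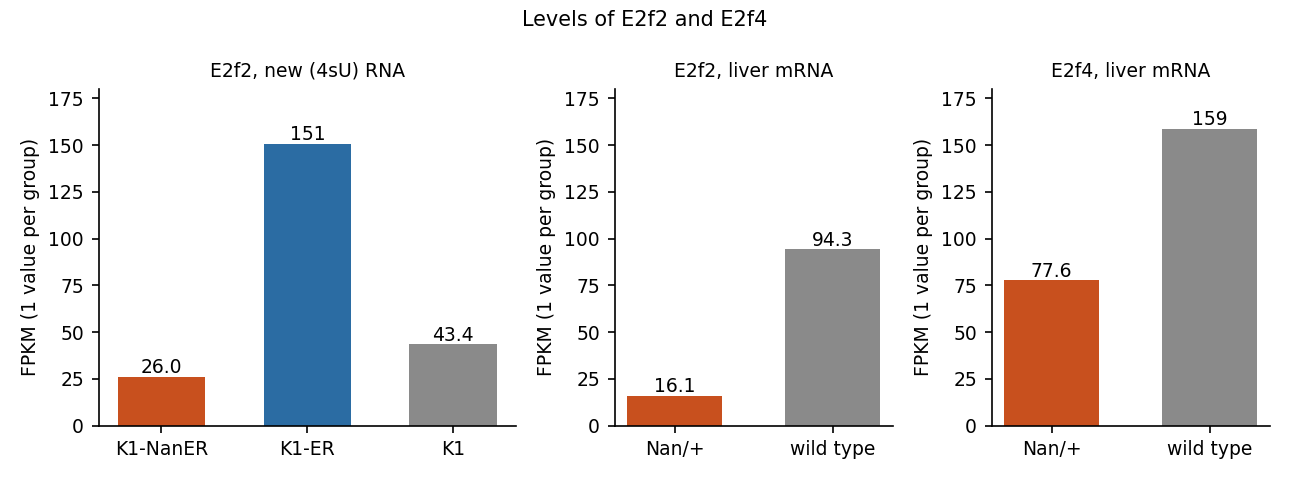
Levels of E2f2 and E2f4 in FPKM (vertical axes start at 0), 1 bar per group and no error bars because the authors' deposited tables hold 1 value per group. The E2f2 bars stand at 26.0 (K1-NanER), 151 (K1-ER) and 43.4 FPKM (K1), and both genes are lower in Nan/+ than in wild-type liver.

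The contrast of the lines is given as a description only. The 4sU table holds only genes called in at least 1 line, and E2f2 has its row through K1-ER, where it was high. That filter favours a low ratio of K1-NanER over K1-ER for E2f2. Its new RNA was 5.78-fold lower in K1-NanER than in K1-ER, a log2 ratio of -2.53 from the FPKM of the authors' deposited table, where the median gene had -0.26. This ratio was lower in 46 of the 1556 genes (2.96%). It has no test, since the table does not compare these lines with each other and holds no replicate values. Of the 589 genes that rose in K1-ER, 60 (10.2%) lay below K1 in K1-NanER, and 16 of them, E2f2 included, lay at least as far below it as E2f2. Both comparisons share the K1 libraries, so the signs of a gene in them are not independent. RNA of Esr1, part of which the fusions carry, had 70.3 (K1-NanER), 136 (K1-ER) and 2.41 FPKM (K1) per the authors' deposited table, and the part of this difference in the E2f2 values was not tested. Differences between clones are part of them too and cannot be told apart from the effect of the factors.

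In Nan/+ fetal liver both genes were lower than in wild type. The authors' deposited table lists E2f2 at 16.1 FPKM in Nan/+ livers and 94.3 FPKM in wild-type livers. For E2f4 the authors' deposited table has 77.6 FPKM in Nan/+ livers and 159 FPKM in wild-type livers. E2f2 thus kept 17.1% of its wild-type level and E2f4 48.9%. The authors' deposited table gives log2 fold changes of -2.55 for E2f2 (p = 5e-05, q = 0.00244) and -1.03 for E2f4 (p = 0.0012, q = 0.0277), a 5.86-fold and a 2.05-fold lower level. Here 195 genes fell, 24.6% of the liver table, which lists called genes only. E2f2 had the 27th steepest of these falls and E2f4 the 184th, against a median log2 fold change of -1.32 among them.

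E2f4 lies near the edge of the liver table, and E2f2 well inside it. The table lists no gene with a log2 fold change under 1 in size, and 11 of the 195 genes fell less than E2f4. The neighbours of E2f4 in that order were Osbpl8, a lipid transfer protein, at -1.04 and Rab43, a small GTPase, at -1.03 on the log2 scale in the authors' deposited table. E2f2 stood between Rgcc, a regulator of the cell cycle, at -2.64 and the acyl-CoA thioesterase gene Acot11 at -2.49 on the log2 scale in the authors' deposited table. Of the 26 genes that fell further than E2f2, 18 had under 10 FPKM in wild type, and Rgcc alone had a wild-type level as high as that of E2f2, with 21.1 FPKM in Nan/+ and 131 FPKM in wild type in the authors' deposited table.

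**Figure D2:**
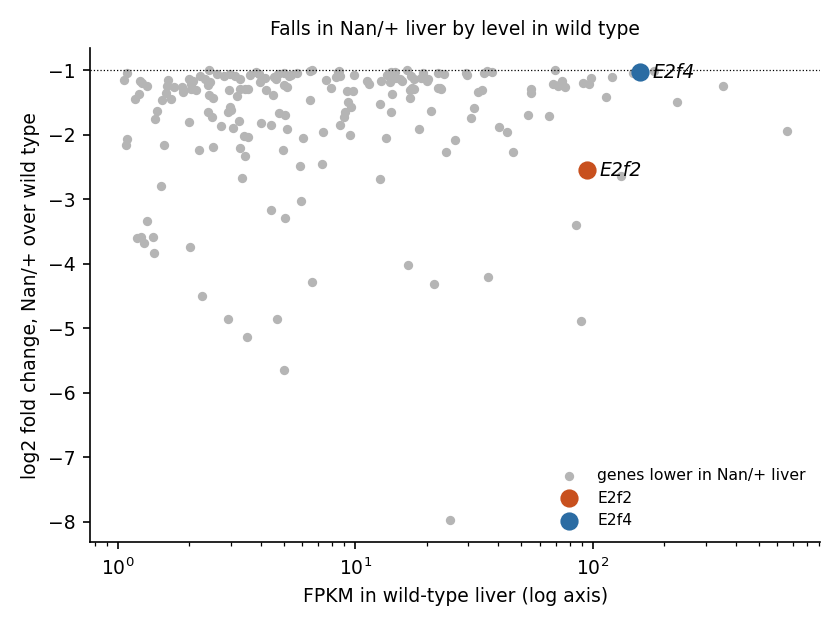
Log2 fold change of Nan/+ over wild-type liver (vertical axis) against FPKM in wild type (horizontal, log axis) for the 195 genes that fell, 1 point per gene, with a dotted line at -1. E2f2, at -2.55 and 94.3 FPKM, lies lower than every other gene with a wild-type level as high, apart from Rgcc, and E2f4, at -1.03 and 159 FPKM, lies just under the line.

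FPKM is per length, so the levels of the 2 genes can be set side by side. The E2f4 level was 4.83 times that of E2f2 in Nan/+ liver and 1.68 times in wild-type liver, from the FPKM of the authors' deposited table. E2f4 was the more abundant in both genotypes, and among the 195 genes that fell 5, itself included, had a wild-type level as high as its own. In whole liver, fewer cells of a type and less RNA per cell cannot be told apart.

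Markers of other cells moved in the same livers. All 5 granulocyte markers rose, with a summed level of 2521 FPKM in Nan/+ and 412 FPKM in wild type in the authors' deposited table, and so did 1 of 5 macrophage (Cd68), 1 of 4 megakaryocyte (Pf4) and 1 of 4 stem and progenitor markers (Gata2). Higher genes make up 75.4% of the liver table. None of the 8 erythroblast, 6 hepatocyte or 3 endothelial markers has a row there. A marker with no row does not show that its cell type was unchanged. Other genes of these cell types, hepatocytes included, were not examined. Xist, the RNA that silences an X chromosome in female cells, was at 0.04 FPKM in Nan/+ and 25.1 FPKM in wild type, and the muscle gene Acta1 at 0.34 FPKM in Nan/+ and 6.59 FPKM in wild type, in the authors' deposited table. The part of these differences in the E2f2 and E2f4 values was not tested. Of 8 erythroblast markers, 5 have a row in the 4sU table, of which 3 rose in K1-NanER and 5 in K1-ER, where 47.4% and 37.9% of the table rose.

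All peaks that name E2f2 lie in its introns per the authors' lists, whose fold enrichment of ChIP over input is the authors' own value. Nan-KLF1 had 1 peak on E2f2, of 2758 in its list, and KLF1 had 3, of 5326. Neither list has a peak with E2f4 as nearest gene. The E2f2 peaks of KLF1 cover 2275 bases in all and their summits lie within 6507 bases of each other, in the part of the locus nearest its start.

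The middle site was the strongest of KLF1 on E2f2 and the one that Nan-KLF1 shared. The Nan-KLF1 peak (chr4:135733413-135734386) had a fold enrichment of 107.23 and the KLF1 peak (chr4:135733305-135734559) one of 347.26. The Nan-KLF1 peak lay wholly within the KLF1 peak, and the summits were 26 bases apart. Within its own list each stood at a different place. Of the Nan-KLF1 peaks, 47.1% had a higher fold than this one, whose fold is the median of that list and is shared by 197 of its peaks. Of the KLF1 peaks, 3.17% had a higher fold than the one on E2f2. The lists name a different central motif at this site, ccaCaccc for Nan-KLF1 and cccCaccc for KLF1, both with C as the fourth base. The Nan-KLF1 motif was rare in its own list, at 28 peaks (1.02%), against 555 KLF1 peaks (10.4%). Over all peaks, 44.8% of Nan-KLF1 peaks overlapped a KLF1 peak by at least 1 base, and 22.8% of KLF1 peaks overlapped a Nan-KLF1 peak.

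KLF1 alone had a listed peak at the other 2 sites of E2f2. The site nearest the start (chr4:135730554-135731174) had a fold enrichment of 189.09, which 12.4% of KLF1 peaks exceeded. Its motif, ccaAgccc, has A as the fourth base and is in 63 Nan-KLF1 peaks (2.28%) and 47 KLF1 peaks (0.882%), so that this KLF1 peak of E2f2 carries a motif given more often in the mutant's list. The third site (chr4:135737183-135737581) had a fold enrichment of 81.39 with the motif cccCgccc, near the KLF1 median of 75.63. The most frequent motif of the E2f2 peaks in either list was this one, at 13.7% of Nan-KLF1 and 16.4% of KLF1 peaks. A site absent from a list had no peak that passed the authors' threshold there (the lowest listed fold is 30.06 for Nan-KLF1 and 30.01 for KLF1), and binding below it was not analysed here.

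**Figure D3:**
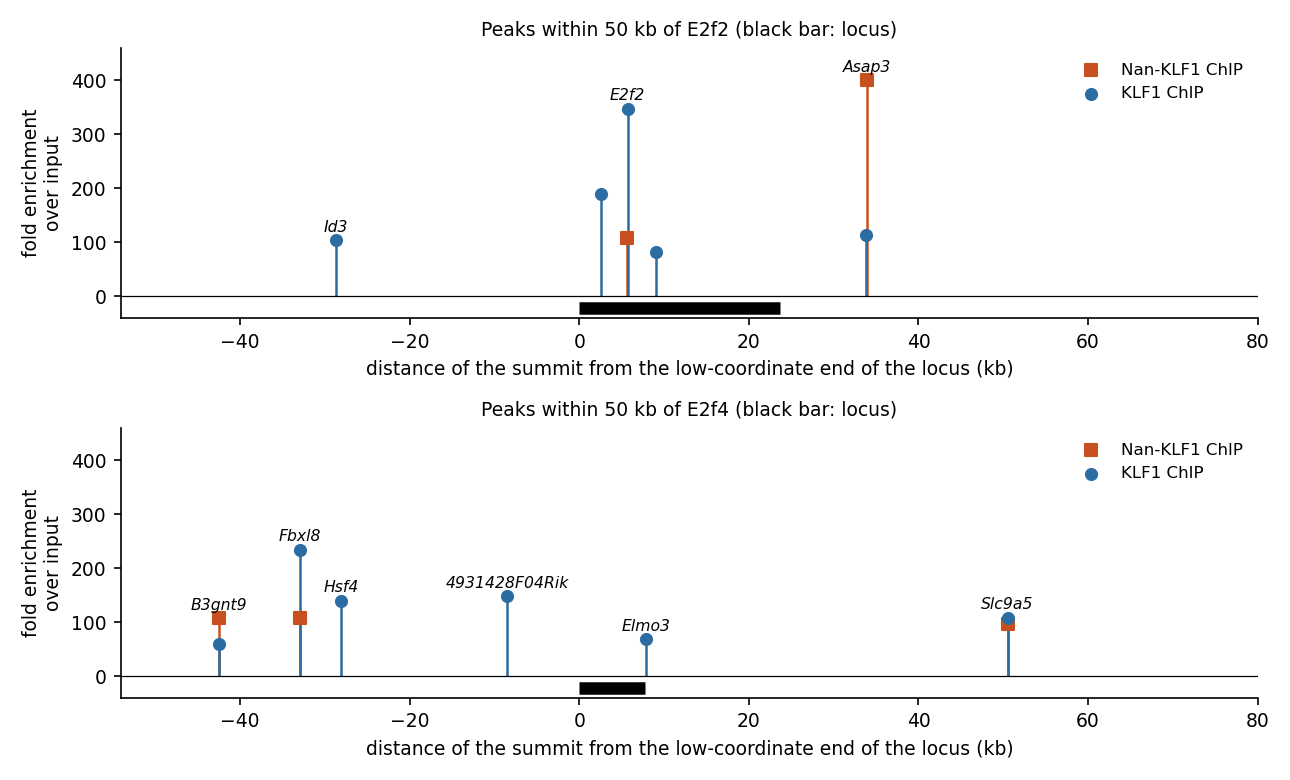
Peaks within 50 kb of E2f2 (top) and E2f4 (bottom), placed by the distance of their summit from the low-coordinate end of each locus in kb, with fold enrichment over input as height; squares are Nan-KLF1, circles KLF1, the black bar is the locus, and names are the nearest genes given by the authors. E2f2 holds 1 Nan-KLF1 and 3 KLF1 peaks inside its locus, and the peaks around E2f4 are named for other genes.

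E2f2 had more KLF1 peaks than most genes with such a peak. Of 3809 genes with a KLF1 peak, 258 (6.77%) had 3 or more, while 76.4% had 1. Of these 258 genes, 92 have a row in the 4sU table, of which 70 (76.1%) rose and 4 fell in K1-ER, against 37.9% and 11.5% of the whole table. The whole table includes genes with no KLF1 peak. Genes with fewer peaks were not set apart, so these shares do not separate the number of peaks from having any. Of the 258 genes, 18 have a row in the liver table, of which 11 (61.1%) fell, against 24.6% of the table. Several KLF1 peaks were not particular to E2f2 among genes that behaved like it. Of the 25 genes that rose in K1-ER and fell in Nan/+ liver, E2f2 included, 6 had 3 or more.

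E2f4 (chromosome 8, 107821563 to 107829270 on mm9) had no listed peak within 2500 bases of its low-coordinate end. Within 50 kb of the locus lay 3 Nan-KLF1 and 6 KLF1 peaks, all named for other genes. The closest of those that do not overlap it was a KLF1 peak with a fold enrichment of 147.98, named for 4931428F04Rik, whose summit lies 8.457 kb below the locus. A KLF1 peak at chr8:107829202-107829771, listed as a promoter peak of Elmo3, a gene of the engulfment pathway, reaches 69 bases into the high-coordinate end of E2f4. Its fold enrichment was 68.51 with the motif cccCgccc. Around E2f2 the lists add 1 Nan-KLF1 and 2 KLF1 peaks within 50 kb. Asap3, a regulator of Arf GTPases, had a promoter peak of both factors, with a fold of 399.66 for Nan-KLF1 and 113.66 for KLF1. Id3, an inhibitor of helix-loop-helix factors, had a KLF1 promoter peak with a fold of 103.59.

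Genes close to the members were few in the expression tables. Within 50 kb of E2f2 no other gene has a row. Within 50 kb of E2f4 the 4sU table has Tradd, an adaptor of TNF receptors, and Fbxl8, an F-box protein. Tradd rose in both lines and had 25.0 (K1-NanER, q = 0.0222), 38.1 (K1-ER, q = 0.00213) and 8.58 FPKM (K1) per the authors' deposited table. Fbxl8 rose in K1-ER and was not called in K1-NanER, with 4.40 (K1-NanER, q = 0.566), 13.5 (K1-ER, q = 0.0104) and 2.55 FPKM (K1) per the authors' deposited table.

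The genes whose pattern was most like that of E2f2 likewise rose in K1-ER and fell in Nan/+ liver, which follows from how they were chosen. Likeness was the distance over the log2 fold changes of 3 comparisons (K1-NanER over K1, K1-ER over K1, Nan/+ over wild-type liver), among 88 other genes with a row in both tables and no level at 0 or at the tables' floor. The closest were Fam132b (the hormone erythroferrone, distance 0.44), Aqp3 (a water and glycerol channel, 0.60), Pqlc1 (0.85), Slc43a1 (an amino acid transporter, 1.43) and Slc25a37 (the mitochondrial iron importer, 1.46). Per the authors' deposited tables, Fam132b had 5.14 (K1-NanER), 22.1 (K1-ER) and 7.18 FPKM (K1) in cells, and 1.06 FPKM in Nan/+ and 4.99 FPKM in wild-type liver. Aqp3 had 8.39 (K1-NanER), 33.6 (K1-ER) and 14.5 FPKM (K1) in cells, and 1.97 FPKM in Nan/+ and 12.8 FPKM in wild-type liver, per the authors' deposited tables. All 5 rose in K1-ER, none was called in K1-NanER (the smallest q was 0.314, that of Pqlc1) and all fell in liver. In K1-NanER 4 of them lay below K1, and Slc25a37 above it (0.59 on the log2 scale of the authors' deposited table). None of the 5 is the nearest gene of a Nan-KLF1 peak, and 4 of the 5 are that of at least 1 KLF1 peak, whereas E2f2 has a peak of each factor. For E2f4 the same measure rests on 1 comparison, the liver, where Rab43, 4930503L19Rik, Osbpl8, Sulf1 and Arhgap33 lay nearest to it, at distances between 0.002 and 0.008 on the log2 scale.

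**Figure D4:**
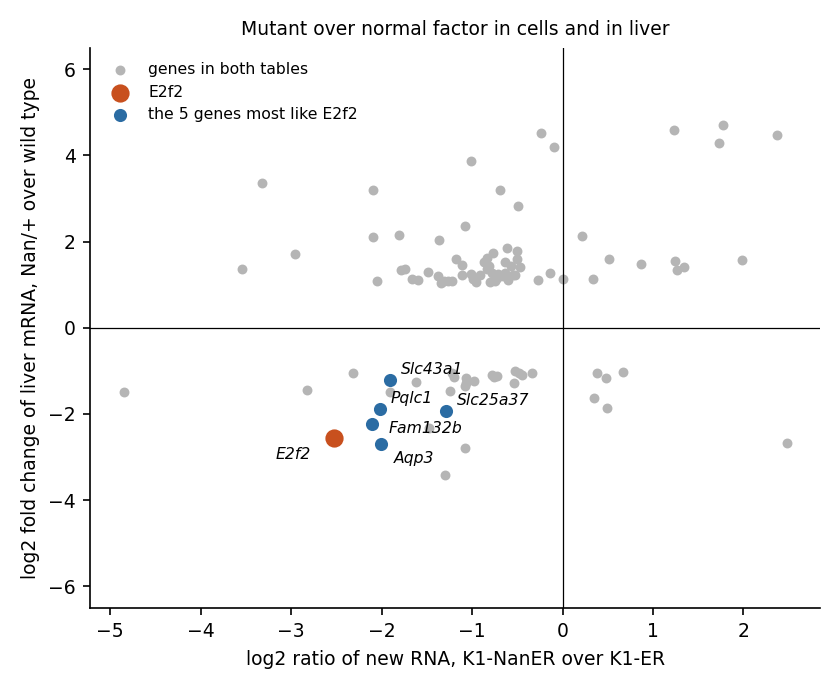
Log2 ratio of new RNA in K1-NanER over K1-ER (horizontal) against the log2 fold change of liver RNA in Nan/+ over wild type (vertical) for the 102 genes in both tables, 1 point per gene. E2f2 lies at -2.53 and -2.55, and no other gene lies as low on both axes, which is also true of Pklr, Aqp3 and Epb4.9 at their own places.

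In cells and in liver E2f2 RNA stood lower with the mutant. The log2 values of E2f2 were -2.53 for K1-NanER over K1-ER and -2.55 for Nan/+ over wild-type liver, which share no library. Relative to the median gene of each table they were -2.27 and -3.80, so that they are close on the deposited scale and not on that one. The cell and liver values are also unlike in kind. The cell value is from new RNA of KLF1 null cells with either fusion. The liver value is from polyadenylated RNA of whole livers, where Nan/+ embryos keep a normal Klf1 allele. Of the 102 genes in both tables, 5 had a lower ratio between the lines and 4 a lower one in liver, and no gene other than E2f2 was as low on both. E2f2 has its 4sU row through its rise in K1-ER, which favours a low ratio between the lines. A rise in K1-ER with a fall in Nan/+ liver was found for 25 genes, E2f2 among them, which is 4.24% of the genes that rose in K1-ER and 12.8% of those that fell in liver. Among the 102 genes that could show both, 39.1% of the 64 that rose in K1-ER fell in liver, near the 34.3% of all 102 that did. A KLF1 peak was listed for 22 of the 25 and a Nan-KLF1 peak for 9, and 7 of the 25 lay below K1 in K1-NanER. For comparison, a KLF1 peak was listed for 71.1% of the genes that rose in K1-ER and 36.4% of those that fell in liver. The like shares for Nan-KLF1 peaks were not computed, so whether 9 of 25 is high or low is unknown.

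E2f2 and E2f4 were the E2F genes with a row, and 6 of the 8 (E2f1, E2f3, E2f5, E2f6, E2f7 and E2f8) have none. Peaks were listed for 2 E2F genes in the Nan-KLF1 list and 4 in the KLF1 list. E2f1, like E2f2 an activating E2F, had 1 promoter peak of each factor, with a fold of 224.2 for Nan-KLF1 and 184.98 for KLF1. E2f3 (fold 147.98) and E2f8 (fold 54.81) had 1 KLF1 peak each. E2f2 held 3 KLF1 peaks, the most of the family, and that with the highest KLF1 fold among them.

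The regulators around E2F with a row are, like every gene of the 4sU table, called in at least 1 of the lines. The list of E2F, DP and pocket proteins with their upstream cyclins, kinases and inhibitors has 34 genes, E2f2 and E2f4 among them. In K1-NanER 5 of the 8 with a row rose and none fell (47.4% of the table rose, 28.3% fell). In K1-ER 4 of the 8 rose and none fell (37.9% of the table rose, 11.5% fell). Their median on the log2 scale was 1.52 in K1-NanER, where the whole table had 1.04, and 1.56 in K1-ER, where the whole table had 0.72. In liver the 2 members are the listed genes with a row.

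The cyclin Ccnd3, whose kinase complex releases E2Fs from the retinoblastoma protein, had 64.8 (K1-NanER, q = 0.365), 278 (K1-ER, q = 0.00213) and 36.0 FPKM (K1) per the authors' deposited table. The kinase inhibitor Cdkn2d had 18.3 (K1-NanER, q = 0.0710), 43.8 (K1-ER, q = 0.00213) and 6.37 FPKM (K1) per the authors' deposited table. As for E2f2, the authors' test called these 2 genes in K1-ER and not in K1-NanER, but both lay above K1 in K1-NanER. The kinase inhibitor Cdkn1a rose in both lines, with 32.5 (K1-NanER), 51.3 (K1-ER) and 4.82 FPKM (K1) per the authors' deposited table.

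Other genes of the list were called in K1-NanER alone and have their rows through it, while E2f2 has its row through K1-ER alone. A gene not called in 1 line has a row only if called in the other. This contrast is therefore no result about these genes. Ccne2, an E2F-driven cyclin of S phase entry, had 60.2 (K1-NanER, q = 0.00213), 8.39 (K1-ER, q = 0.901) and 7.27 FPKM (K1) per the authors' deposited table. Rb1, the retinoblastoma protein itself, had 12.1 (K1-NanER, q = 0.00804), 6.56 (K1-ER, q = 0.416) and 4.21 FPKM (K1) per the authors' deposited table. The inhibitor Cdkn2c and Lin9, a subunit of the MuvB complex that joins with E2F4, likewise rose in K1-NanER. Per the authors' deposited table Cdkn2c had 42.0 (K1-NanER), 15.1 (K1-ER) and 6.03 FPKM (K1), and Lin9 had 25.3 (K1-NanER), 11.8 (K1-ER) and 10.3 FPKM (K1). The difference between the lines was not tested for any of them.

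Of 52 E2F target genes of DNA replication, 5 have a row in the 4sU table and none in the liver table. The 4sU table holds only genes called in at least 1 line, and these 5 have their rows through K1-NanER, where 3 rose and 2 fell. None was called in K1-ER, so that filter alone makes all 5 called in K1-NanER, and the contrast is no result about them (75.7% of its genes were called in K1-NanER and 49.4% in K1-ER). In K1-ER there was an unadjusted p under 0.05 in the authors' deposited table for 2 of them, Rrm2 (p = 0.00365) and Atad2 (p = 0.0129). Rrm2, the small subunit of ribonucleotide reductase, had 133 (K1-NanER, q = 0.00213), 82.8 (K1-ER, q = 0.0568) and 43.0 FPKM (K1) per the authors' deposited table. The helicase gene Hells and Atad2 also rose in K1-NanER, by 2.02 and 1.49 on the log2 scale of the authors' deposited table. Pold1, the catalytic subunit of DNA polymerase delta, and Rfc2, a clamp loader subunit, fell in K1-NanER, with values of -1.30 and -1.47 on that scale of the authors' deposited table. The rest of the list has no row and is not analysed here.

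**Figure D5:**
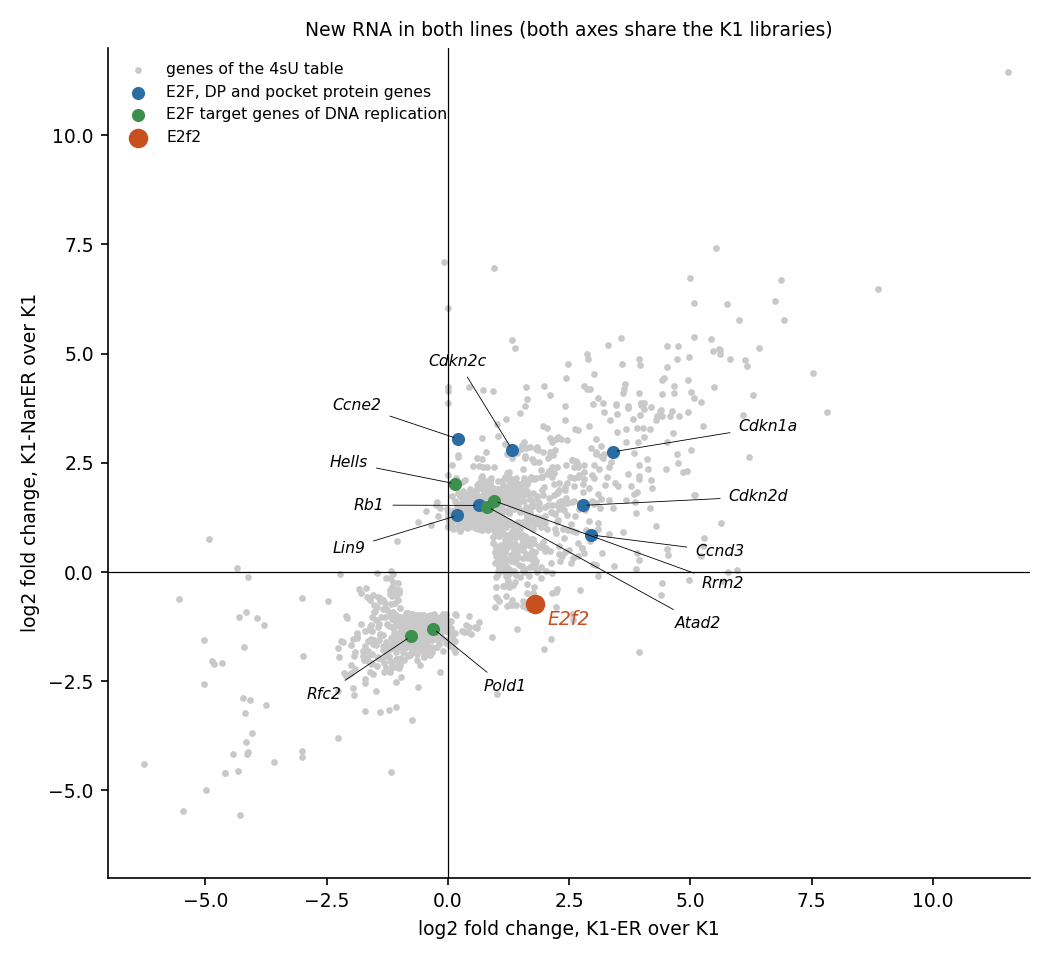
Log2 fold change of new RNA in K1-NanER over K1 (vertical) against K1-ER over K1 (horizontal) for the 1556 genes of the 4sU table, 1 point per gene; blue points are the listed regulators of E2F and green points the replication targets. E2f2, at -0.74 and 1.79, is the listed gene that lies above K1 in K1-ER and below it in K1-NanER.

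The lists were also read for peaks, with no test of a difference between regulators, which include E2f2 and E2f4, and targets. Of the 34 regulators 10 had a Nan-KLF1 peak and 17 a KLF1 peak, and of the 52 targets 2 had a Nan-KLF1 peak and 13 a KLF1 peak. Over all genes, 2148 had a Nan-KLF1 peak and 3809 a KLF1 peak. Their share of all genes was not computed, so the counts do not tell whether either list is bound more or less often than other genes. Ccnd3 and Cdkn2d had at least as many KLF1 peaks as E2f2, with 4 Nan-KLF1 and 4 KLF1 peaks on Ccnd3 and 2 Nan-KLF1 and 3 KLF1 peaks on Cdkn2d. The replication target Tk1 also had 3 KLF1 peaks, and no Nan-KLF1 peak. Ccne2, the listed gene with the largest rise in K1-NanER, has no peak in either list.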

How the data were processed

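Expression came from the authors' 2 deposited tables (4sU RNA and liver RNA) and binding from their annotated lists of peaks, 1 for each factor. TopHat2 2.0.10, MACS 1.4.2 and the build mm9 are named in the submitters' processing notes. Which program gave FPKM, q values, peak annotation and motifs is not given in the sources used here. The authors' FPKM is 1 value per group. The log2 fold change in the deposited tables sets the line over K1, or Nan/+ over wild type (a corrected fold change per the file headers). Both the p-value and the q value are the authors', with 5e-05 the smallest p they list. Enrichment at a peak is a fold of ChIP over input computed by the authors, and the deposited rank (a score) only orders peaks. The tables list called genes, so each share given is a share of a table and not of all genes tested.

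The files give no value of a single library, and no model could be fitted. Ratios, ranks, overlaps (at least 1 bp), distances and motif searches were computed with Python 3.11.15 and pandas 2.3.3; the searches were tested on simulated data. Locus starts are printed 1 higher than deposited, which gives the E2f4 locus its RefSeq length of 7708 bases but leaves E2f2 at 23663 bases, against 23784 in RefSeq. Genes and lists were chosen with earlier results of these data known. Named genes are the members, called genes of the lists, genes within 50 kb, neighbours in rank and the 5 most alike per member; Xist, Acta1, Esr1 and the other E2F genes were added after their values were seen. Separate cultures (K1) or litters (livers) are not stated in the labels, so the authors' p-values may measure technical spread.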

Additional observations from a re-analysis of the deposited data

Results flagged for a closer look

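A KLF1 peak with a fold enrichment of 68.51 over input overlaps the high-coordinate end of the E2f4 locus and is named for the neighbouring gene Elmo3, so that it is outside the peaks counted for E2f4. Its summit lies 136 bases beyond the locus end, and 56.4% of KLF1 peaks had a higher fold. No Nan-KLF1 peak overlaps it.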

How the results depend on the processing

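No paired analysis was possible because each expression table holds 1 value per group; for the same reason no replicate could be left out. A minimum of 1 FPKM could not alter the values of the members, so that it says nothing of their stability. A stricter q could only drop calls and not add them, so that it says nothing of what was not called. With a q of at most 0.01, E2f4 in liver no longer passed (log2 fold change -1.03, q = 0.0277), and the called E2F list genes in liver came to 1. In K1-NanER the called genes went from 5 to 4 among the E2F regulators, and likewise among the replication targets. With any peak within 50 kb counted, E2f2 had 2 Nan-KLF1 and 5 KLF1 peaks, and E2f4 had 3 and 6. Relative to the median gene of each table, the log2 values of E2f2 were -1.77 in K1-NanER, 1.07 in K1-ER and -3.80 in liver, and that of E2f4 in liver was -2.28; these medians are those of called genes. The contrast of K1-NanER with K1-ER was recomputed in ways chosen after seeing the data, and gave -2.49 with 1 FPKM added and -2.27 relative to the median gene. The unknown depth limits what can be said of sites and genes that have no entry.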
